A study of Mus musculus with 6 samples.

Results

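The Toll-like receptors described here are the 10 genes Tlr1 to Tlr9 and Tlr12, found by symbol among the 26286 genes of both count tables. All 10 were present. The 6 libraries came from CD4+ CD25high regulatory T cells (Treg) of C57BL/6 mice with a GFP reporter of Blimp-1, the repressor encoded by Prdm1; sample titles carry the prefix BlimpHet in both populations. Cells from pooled spleens and lymph nodes were sorted into a GFP- population (replicates 20, 2 and 5) and a GFP+ population (replicates 19, 1 and 4), which the design text calls biologically independent samples. Replicates 20 and 19 were made with poly(A) selection, and replicates 2, 5, 1 and 4 by an amplification method meant for single cells (the single-cell protocol). Neither animal ages nor the number of animals behind a sample is given in the labels.

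Toll-like receptors are membrane proteins of the innate immune system that recognise microbial molecules through leucine-rich repeats and signal through a cytoplasmic TIR domain. TLR1, TLR2, TLR4, TLR5 and TLR6 act at the cell surface, while TLR3, TLR7, TLR8 and TLR9 bind nucleic acids in endosomes. Most signal through the adaptor MyD88 to NF-kB; TLR3 uses TRIF, and TLR4 uses both. They are best known from macrophages, dendritic cells and B cells, and some are also transcribed in T cells, where TLR2 ligands can act on Treg directly.

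Tlr1 and Tlr6, adjacent genes on chromosome 5, are close copies, which bears on how their reads can be told apart. In the GENCODE transcripts of build GRCm38, 454 stretches of 50 bases occurred in both genes, which is 14.8% of those of Tlr1 and 12.3% of those of Tlr6. No other pair of the 10 genes, Tlr11 or Tlr13 shared such a stretch. The longest identical run, 229 bases, lay within the coding part of both, in the last exon (exon 3 of Tlr1 at chr5:64925537-64925765 and exon 2 of Tlr6 at chr5:64953828-64954056, minus strand). Reads from it could belong to either gene, so the levels of this pair are uncertain to that extent.
Tlr1 and Tlr6 shared run: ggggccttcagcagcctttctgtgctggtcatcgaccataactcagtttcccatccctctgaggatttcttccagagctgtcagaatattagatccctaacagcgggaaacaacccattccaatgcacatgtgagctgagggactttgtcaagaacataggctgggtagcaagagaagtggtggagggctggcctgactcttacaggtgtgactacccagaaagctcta

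Promoter windows from RefSeq (GRCm38.p6, 250 bases before and 50 after each gene's start) were found for 8 of the 10 genes, the others being Tlr4 and Tlr7. Stretches from 120 bases before to 30 bases after the start are shown for the close pair Tlr1 and Tlr6 (the first of the 2 windows listed for each), for Tlr8, which had the largest fitted difference between the populations, and for Tlr2 and Tlr9, which were above 2-fold among the members measured in the poly(A) pair alone. Capitals mark matches, on either strand, to the letters GAGGAAGT (bound by PU.1), GTGAAAGT (bound by Blimp-1), TGANTCA (AP-1) and to the interferon response letters, GAAA repeated after any 2 bases.
Tlr1, chr5:64933529-64933678, minus strand: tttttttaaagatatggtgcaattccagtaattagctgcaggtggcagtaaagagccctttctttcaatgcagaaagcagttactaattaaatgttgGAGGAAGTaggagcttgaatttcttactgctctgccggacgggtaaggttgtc
Tlr6, chr5:64959137-64959286, minus strand: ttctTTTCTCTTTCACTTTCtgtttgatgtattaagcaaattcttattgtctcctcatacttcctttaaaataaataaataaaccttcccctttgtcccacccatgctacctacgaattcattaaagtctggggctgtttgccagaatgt
Tlr8, chrX:167264300-167264449, minus strand: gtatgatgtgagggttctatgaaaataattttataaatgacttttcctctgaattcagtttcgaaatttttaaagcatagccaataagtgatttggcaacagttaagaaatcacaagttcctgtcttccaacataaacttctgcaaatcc
Tlr2, chr3:83841579-83841728, minus strand: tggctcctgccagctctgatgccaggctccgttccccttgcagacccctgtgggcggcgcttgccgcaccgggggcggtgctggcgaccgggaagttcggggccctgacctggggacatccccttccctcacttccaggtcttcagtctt
Tlr9, chr9:106222478-106222627, plus strand: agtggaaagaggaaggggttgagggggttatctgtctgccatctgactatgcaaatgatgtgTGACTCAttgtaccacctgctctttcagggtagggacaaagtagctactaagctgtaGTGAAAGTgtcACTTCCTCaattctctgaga
In the Tlr1 window the PU.1 letters began 23 bases before the start. The Tlr6 window held 2 overlapping interferon response matches. The Tlr9 window had an AP-1 match 58 bases before the start, a Blimp-1 match that spans the start and a PU.1 match at base 11 after it; the last of these read on the minus strand. No letters of the 4 motifs were found in the windows of Tlr2, Tlr3, Tlr5, Tlr8 and Tlr12. The second windows of Tlr1 and Tlr6, not shown, held none either. Of 32851 RefSeq windows of 300 bases, 3.20% held the PU.1 letters, 0.846% the Blimp-1 letters, 7.81% the AP-1 letters and 3.44% the interferon response letters. These matches describe letters and not binding.

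The poly(A) libraries held 27221562 and 28354321 counts, and each other library held from 15224051 to 17601420. Almost all genes of chromosomes 3, 8 and 9 were at 0 in the single-cell protocol table: 2 of 1092, 0 of 1115 and 0 of 1300 genes had a count there, against 900, 929 and 1022 in the poly(A) table. Tlr2, Tlr3 and Tlr9 lie on these chromosomes, so for them only the poly(A) pair was used, with no test. Of the other 7 members, 6 passed the filter on low counts and Tlr5 did not. The 9 tested Treg markers were present in every library, with Foxp3 between 1097 and 2624 CPM (counts relative to library size, scaled by TMM). Another 4 listed markers (Cd3d, Cd3e, Cd3g and Cd2) had counts only in the poly(A) libraries. Macrophage markers stood apart between the populations: all 12 tested markers were higher in GFP+ Treg, with a median log2 fold change of 6.01, and the listed markers with counts in both tables summed to between 33.4 and 120 CPM (of all counts) in the GFP- libraries and between 1168 and 1959 CPM in the GFP+ libraries. No tested marker was at 0 in any library, but Mertk, Spic and Cd163 passed the filter only through the GFP+ libraries. In bulk RNA, more cells of a type and more RNA per cell cannot be told apart.

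Levels differed widely between members. RPKM, which scales counts to gene length and library total, averaged 25.4 in the poly(A) pair for Tlr1 and 11.9 for Tlr6, followed by 3.77 for Tlr12, 3.62 for Tlr2, 3.43 for Tlr7 and 2.91 for Tlr9. Tlr4 averaged 0.664, Tlr8 0.402, Tlr3 0.116 and Tlr5 0.0740. Tlr1 lay above Tlr6, Tlr6 above Tlr12 and Tlr4 above Tlr8 in 6 of 6 libraries, and Tlr9 above Tlr4 in both poly(A) libraries. These means pool a GFP- and a GFP+ library, and the order in the middle differed between them. In GFP- replicate 20 Tlr12 (4.99 RPKM) was followed by Tlr7 (3.82), Tlr2 (1.96) and Tlr9 (1.79). In GFP+ replicate 19 Tlr2 (5.29 RPKM) was followed by Tlr9 (4.03), Tlr7 (3.03) and Tlr12 (2.54). Tlr8, Tlr3 and Tlr5 also changed places, and with 1 poly(A) library per population no spread within a population is known for these ranks. In the single-cell protocol libraries Tlr7 (mean 2.49 RPKM) was above Tlr12 (0.443 RPKM). The table of that protocol caps nearly all gene lengths at 3000 bases, which leaves the lengths of Tlr1, Tlr2 and Tlr6 as they are and shortens those of the other 7.

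**Figure D1:**
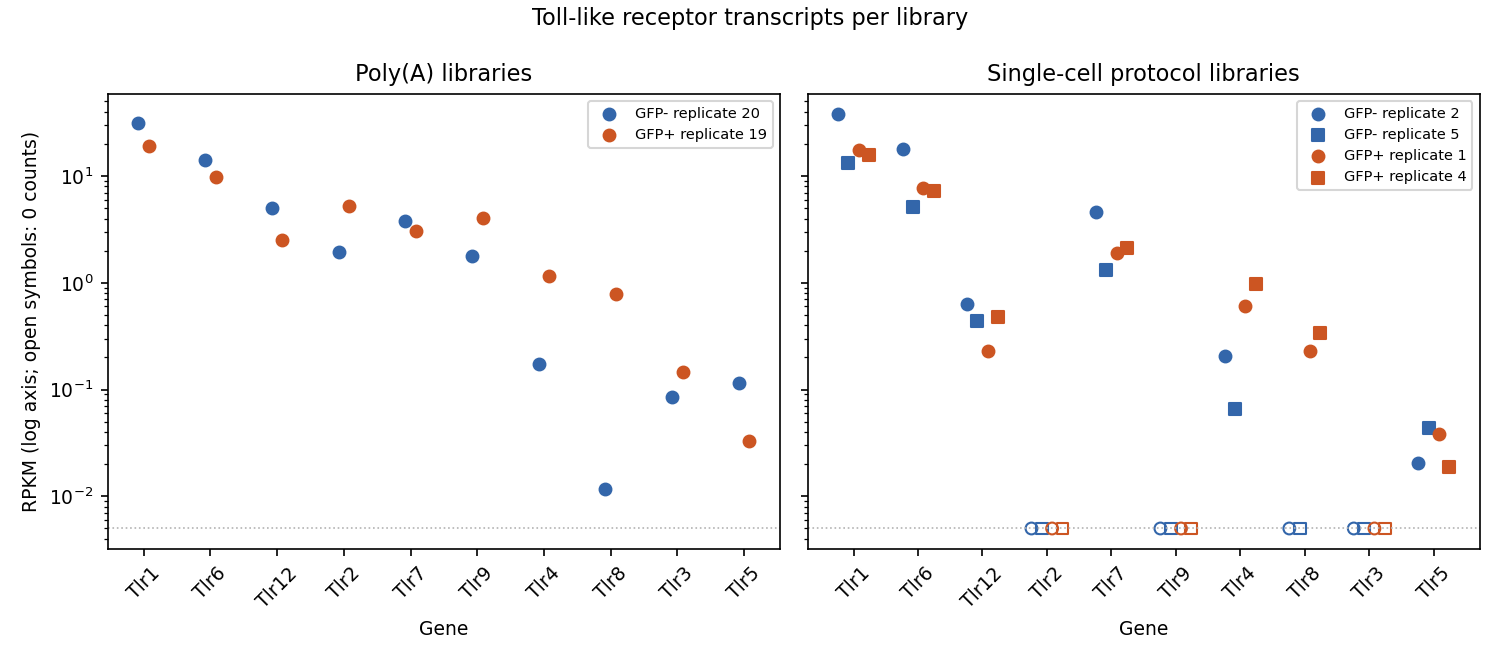
RPKM of the 10 genes on a log axis in the 2 poly(A) libraries (left) and the 4 single-cell protocol libraries (right), ordered by their mean in the poly(A) pair. Blue stands for GFP- and orange for GFP+; open symbols on the dotted line mark 0 counts. Tlr1 and Tlr6 are the most abundant members in each library, and Tlr8 has 0 counts in GFP- replicates 2 and 5.

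Comparing the sorted populations showed which receptors went with the Blimp-1 reporter. Below, 3 values of a population follow the order of GFP- replicates 20, 2 and 5 or of GFP+ replicates 19, 1 and 4, so that the first of each 3 is the poly(A) library. Tlr4 and Tlr8 rose in GFP+ Treg, and none of the tested members fell. Tlr1, Tlr6, Tlr7 and Tlr12 had values below 0 on the log2 scale that did not pass the threshold. So 2 of 6 tested members were called, both higher, where 13.5% of all 10523 tested genes were called (9.81% higher and 3.68% lower, adjusted p under 0.05 in the quasi-likelihood test of edgeR, by Benjamini-Hochberg). The median log2 fold change of the 6 members was -0.55, beside -0.08 for all tested genes. Both called members also passed with DESeq2, which called 18.2% of the same genes, and in the 4 single-cell protocol libraries alone, where edgeR called 6.95% of 10236 genes. The 2 called members passed the filter through the GFP+ libraries: 3 of 3 GFP+ libraries reached the count minimum for each, against 2 GFP- libraries for Tlr4 and 0 for Tlr8.

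Tlr4 (Entrez 21898), the receptor of bacterial lipopolysaccharide, had 18, 10 and 3 counts in GFP- Treg and 126, 32 and 51 counts in GFP+ Treg. Scaled by TMM this was 0.391, 0.725 and 0.380 CPM against 2.56, 2.62 and 3.70 CPM. All 3 GFP+ values exceeded all 3 GFP- values. The looser order, with GFP+ values above GFP- values within each protocol, was found for 21.3% of tested genes. The log2 fold change was 2.54 ± 0.38 (SE, n = 3 in each group, 95% interval 1.67 to 3.42, edgeR adjusted p = 0.00274). Within protocols the log2 ratio of TMM-scaled CPM was 2.71 in the poly(A) pair and 2.52 for the means of the single-cell protocol libraries. The call was lost without the protocol covariate (adjusted p = 0.0715, edgeR).

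Tlr8 (Entrez 170744), an endosomal receptor of RNA degradation products, had 1, 0 and 0 counts in GFP- Treg and 71, 12 and 18 counts in GFP+ Treg. Its GFP+ libraries stood at 1.44, 0.982 and 1.31 CPM, all above the GFP- libraries. Within each protocol, 21.3% of tested genes had their GFP+ values above the GFP- values. In the poly(A) pair the ratio of CPM of all counts was 68.2, with a 95% interval for counting error alone of 11.8 to 2730. In the single-cell protocol libraries it was at least 4.48-fold higher in GFP+ Treg, taken against a floor of 3 counts in each GFP- library. The fitted log2 fold change was 6.12 ± 0.70 (SE, n = 3 in each group, edgeR adjusted p = 0.000712); with 1 count in the GFP- population this value depends on the small count that the fit adds and is no bound.

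Macrophage markers moved with both genes. Csf1r, which encodes the CSF1 receptor of macrophages, had 131, 58 and 30 counts in GFP- Treg and 11660, 4061 and 4070 counts in GFP+ Treg. Per 1000 counts of Csf1r, Tlr8 had 7.63, 0 and 0 counts in the GFP- libraries and 6.09, 2.95 and 4.42 in the GFP+ libraries. Tlr4 had 137, 172 and 100 counts per 1000 of Csf1r in the GFP- libraries and 10.8, 7.88 and 12.5 in the GFP+ libraries, so its rise was smaller than that of Csf1r. The part of the macrophage markers in the rise of Tlr4 and Tlr8 was not tested.

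Tlr1 (Entrez 21897), which pairs with TLR2 to bind triacylated lipopeptides, stood at 48.0, 115 and 65.2 CPM in GFP- Treg and at 28.4, 64.9 and 51.6 CPM in GFP+ Treg. The GFP+ libraries lay below the GFP- libraries of their own protocol, in the case of GFP- replicate 5 and GFP+ replicate 1 by a small margin; 19.3% of tested genes showed this order. Without TMM scaling it did not hold: GFP+ replicates 1 and 4 had 45.2 and 40.4 CPM of all counts, above the 33.8 of GFP- replicate 5. The log2 fold change was -0.67 ± 0.26 (SE, n = 3 in each group, 95% interval -1.28 to -0.07) and was not called (edgeR adjusted p = 0.143). Without GFP- replicate 5 it was -0.89 and passed (edgeR adjusted p = 0.0267), and without GFP- replicate 2, the highest library, it was -0.45 with an adjusted p of 0.354 (edgeR).

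Tlr6 (Entrez 21899), the partner of TLR2 for diacylated lipopeptides, had 21.6, 54.5 and 26.0 CPM in GFP- Treg and 14.6, 28.7 and 24.0 CPM in GFP+ Treg. As for Tlr1, GFP- replicate 2 was the highest of the 6. Unlike for Tlr1, the single-cell protocol libraries of the populations overlapped in these units. The log2 fold change was -0.60 ± 0.29 (SE, n = 3 in each group, 95% interval -1.26 to 0.06, edgeR adjusted p = 0.232). Leaving out GFP- replicate 5 gave -0.84 (edgeR adjusted p = 0.0283) and leaving out GFP- replicate 2 gave -0.27 (edgeR adjusted p = 0.603). Whether and how reads from the 229 identical bases shown above were counted for this pair is not stated.

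Tlr7 (Entrez 170743), an endosomal receptor of single-stranded RNA and the neighbour of Tlr8 on the X chromosome, had 8.48, 16.4 and 7.60 CPM in GFP- Treg. In GFP+ Treg it had 6.55, 8.18 and 8.12 CPM, within or just below the range of the GFP- libraries. The log2 fold change was -0.50 ± 0.31 (SE, n = 3 in each group, 95% interval -1.20 to 0.19, edgeR adjusted p = 0.339). Unlike Tlr8, then, Tlr7 was detected with many counts in the poly(A) libraries of both populations (390 in GFP- replicate 20 and 322 in GFP+ replicate 19).

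Tlr12 (Entrez 384059), a mouse receptor known for binding the profilin of Toxoplasma, had 9.37, 2.25 and 2.53 CPM in GFP- Treg and 4.66, 0.982 and 1.81 CPM in GFP+ Treg. GFP+ values were below GFP- values within each protocol, but in CPM of all counts GFP- replicate 5 (1.31) was below GFP+ replicate 4 (1.42). The log2 fold change was -0.86 ± 0.32 (SE, n = 3 in each group, 95% interval -1.59 to -0.14) and did not pass (edgeR adjusted p = 0.119). It passed narrowly on the log2 RPKM values that the authors deposited (-0.96, limma adjusted p = 0.0478).

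**Figure D2:**
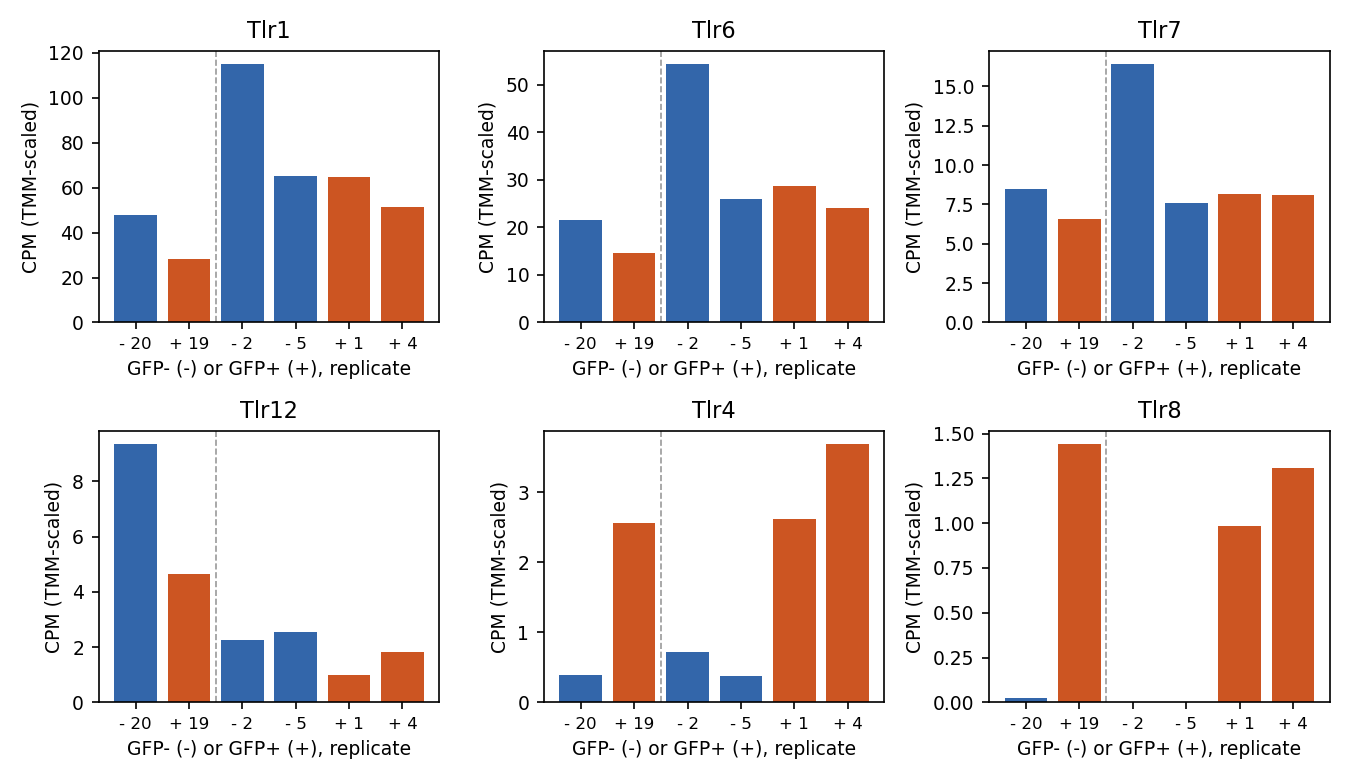
TMM-scaled CPM of the 6 tested members in each library, with a bar per library from 0, blue for GFP- and orange for GFP+; the dashed line separates the poly(A) pair (left) from the single-cell protocol libraries. Tlr4 and Tlr8 are higher in every GFP+ library, while Tlr1, Tlr6 and Tlr7 are highest in GFP- replicate 2.

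The remaining members rest on few counts or on the poly(A) pair. Tlr2 (Entrez 24088), the shared partner of TLR1 and TLR6, had 152 counts in GFP- replicate 20 and 428 in GFP+ replicate 19, a ratio of CPM of all counts of 2.70 (95% interval for counting error alone 2.24 to 3.27). Tlr9 (Entrez 81897), the receptor of unmethylated CpG DNA, had 169 and 397 counts, a ratio of 2.26 (1.88 to 2.72). Both were above 2-fold, as were 12.3% of the 2379 genes with 0 counts in the single-cell protocol table and at least 20 poly(A) counts. Tlr3 (Entrez 142980), the receptor of double-stranded RNA, had 10 and 18 counts, and its ratio of 1.73 had an interval of 0.756 to 4.19, so no difference was detectable at this depth. Tlr5 (Entrez 53791), the flagellin receptor, had 10, 1 and 2 counts in GFP- Treg and 3, 2 and 1 counts in GFP+ Treg, with a poly(A) ratio of 0.288 (0.0509 to 1.12). Of Tlr2, Tlr3 and Tlr9 none was below 0.5-fold, as 6.31% of those 2379 genes were. None of these ratios has a replicate check.

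Markers of B cells, which are known for Tlr9 and Tlr7, were present in both populations. Their summed level was 1192, 4808 and 2023 CPM (of all counts) in GFP- Treg and 2057, 9895 and 6132 CPM in GFP+ Treg. It was higher in GFP+ Treg within each protocol, and most of it came from Ighm. Of the tested B cell markers only Cr2 had a count of 0, in GFP- replicate 5. Of the 10 tested B cell markers only Blk was called, as higher, where 9.81% of all tested genes were. In the poly(A) pair the B cell marker Fcer2a had 236 counts in the GFP- and 239 in the GFP+ library. The log2 ratios of the listed B cell markers in this pair ranged from -0.10 (Ighd) to 2.10 (Blk), with 0.82 for Ighm. Macrophage markers with poly(A) counts only were far higher in the GFP+ library, with 95 and 5367 counts of Vcam1 and 3 and 294 counts of Fcgr1. Per 1000 counts of Csf1r, Tlr2 had 1160 counts in the GFP- and 36.7 in the GFP+ poly(A) library, and Tlr9 had 1290 and 34.0. The part of other cell types in the poly(A) ratios of Tlr2 and Tlr9 was not tested.

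**Figure D3:**
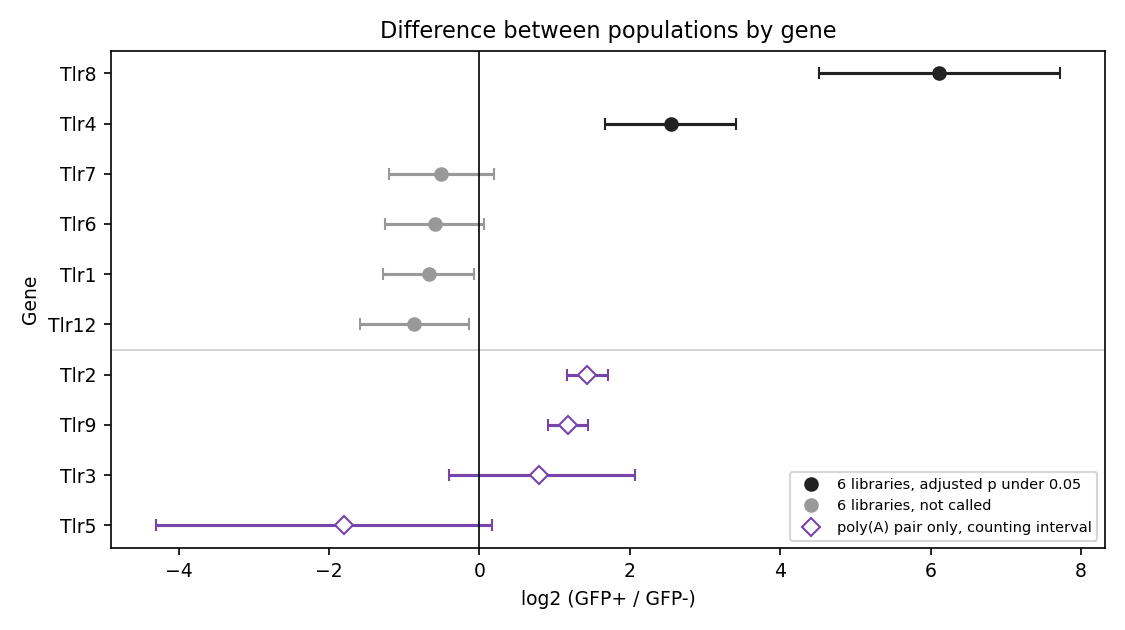
Log2 ratio of GFP+ to GFP- for each gene. Circles are edgeR estimates over 6 libraries with 95% intervals, dark where the adjusted p was under 0.05; diamonds are ratios of the poly(A) pair with intervals for counting error alone. Tlr8 and Tlr4 lie at 6.12 and 2.54, and the other 4 tested members lie between -0.86 and -0.50.

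No member was called as differing between protocols in its response. The interaction of population and protocol was called for 0 of 6 tested members and for 0 of 10523 genes (0%, edgeR with Benjamini-Hochberg adjustment), while 24 genes had an unadjusted p under 0.05. With 2 residual degrees of freedom the intervals were wide; the interaction was -0.26 ± 0.99 for Tlr4 and 2.03 ± 2.62 for Tlr8 on the log2 scale (SE), and between -0.20 and 0.25 for the other 4.

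Profiles of the tested members were compared over the 6 libraries after centring within each protocol. Pearson's r of log2 CPM was 0.972 for Tlr1 and Tlr6, 0.975 for Tlr6 and Tlr7 and 0.981 for Tlr4 and Tlr8, and it was negative for Tlr4 and Tlr8 with each other tested member, reaching -0.837 for Tlr8 and Tlr12. Tlr1 was most like Utrn and Ptcd3 (r = 0.999 each) and D2Wsu81e (0.998). Tlr6 was most like the kinase genes Ripk2 and Map3k8 and the zinc finger gene Zfp935 (0.999 each), and Tlr12 most like Mettl16 (0.999), Phf2 and Tmem245 (0.996 each). These are descriptions over 6 libraries that share depth and scaling, and the similar genes were chosen as the highest of 10523. Centring within protocols keeps the difference between the populations, so the signs of r between members largely repeat those of the fold changes above. The part of the shared run in the r of Tlr1 and Tlr6 was not tested.

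Of the Toll-like receptors outside the 10, 1 was tested and rose. Tlr13 (Entrez 279572), a receptor of bacterial ribosomal RNA, had 3, 1 and 2 counts in GFP- Treg and 111, 43 and 49 counts in GFP+ Treg. It rose by a log2 fold change of 4.79 ± 0.48 (SE, n = 3 in each group, edgeR adjusted p = 0.000358). Like Tlr8 it passed the filter only through the GFP+ libraries, and the size of the fitted value rests on very few GFP- counts. Tlr11, which acts with TLR12, had 0 counts in each GFP- library and 14, 3 and 6 counts in the GFP+ libraries and did not pass the filter.

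Of the co-receptors and proteins that deliver ligands, 6 of 7 tested genes rose in GFP+ Treg and none fell (median log2 fold change 1.98), beside 9.81% higher and 3.68% lower over all tested genes. Cd14, which hands lipopolysaccharide to TLR4, had 5, 2 and 0 counts in GFP- Treg and 538, 48 and 51 counts in GFP+ Treg, and the scavenger receptor Marco rose by 5.63 ± 0.89 on the log2 scale. Ly86, the partner of CD180, rose by 1.98 ± 0.37 and the lectin receptor Clec7a by 4.50 ± 0.59 (SE, n = 3 in each group). Cd14, Marco and Clec7a reached the count minimum of the filter in no GFP- library. They were tested only because they were high in GFP+ Treg, which limits what the count of 6 of 7 shows. Ly96, the MD-2 subunit that TLR4 needs to bind lipopolysaccharide, had 34, 22 and 12 counts in the GFP- libraries and 70, 58 and 84 in the GFP+ libraries, a log2 fold change of 1.48 ± 0.33 (edgeR adjusted p = 0.0184). Its adjusted p was between 0.0556 and 0.0803 without any 1 of GFP- replicates 20 and 2 and GFP+ replicates 19, 1 and 4. Cd180 passed narrowly as well (1.43 ± 0.40, edgeR adjusted p = 0.0476) and was lost with the same libraries left out (between 0.0869 and 0.453) and with DESeq2 (0.0553). Cd36 (0.38) did not pass. Macrophage markers rose beside this list (12 of 12), and their part was not tested.

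Genes for folding, transport and endolysosomal processing of the receptors rose for 6 of 12 tested members, with none lower (median log2 fold change 1.06), where over all genes 9.81% were higher and 3.68% lower. Unc93b1, which carries the nucleic acid receptors to endosomes, had 38.4, 13.1 and 14.1 CPM in GFP- Treg and 106, 35.8 and 51.9 CPM in GFP+ Treg, a log2 fold change of 1.61 ± 0.23 (SE, n = 3 in each group). Within each protocol the GFP+ values lay above the GFP- values. The proteases Lgmn (4.30 ± 0.29) and Ctsb (1.91 ± 0.30), which cut endosomal receptors, the nuclease gene Pld4 (2.93 ± 0.23) and the metal transporter Slc11a1 of phagosomes (6.16 ± 0.41) also rose. The chaperones Hsp90b1 (0.94) and Cnpy3 (0.37) did not pass. Macrophages express Lgmn, Ctsb and Slc11a1 strongly, and the part of macrophage markers here was not tested.

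Downstream of the receptors, the adaptors come first. Of 4 tested adaptors only Pik3ap1 was called, as higher, where 9.81% of all tested genes were. It rose by 1.81 ± 0.41 on the log2 scale (SE, n = 3 in each group, edgeR adjusted p = 0.0201). The call was lost without GFP- replicate 20, GFP+ replicate 19 or GFP+ replicate 4 (edgeR adjusted p = 0.202, 0.236 and 0.0655). Myd88, the main adaptor, had 2564 counts in GFP- replicate 20 and 2936 in GFP+ replicate 19, and Tirap, which links TLR2 and TLR4 to it, had 97 and 546; both lie on chromosome 9 and have the poly(A) pair only. Ticam1, which encodes TRIF, had 0.53.

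Among 17 tested kinases and ubiquitin ligases none rose and 3 fell, beside 9.81% higher and 3.68% lower over all tested genes: the E3 ligase Traf6 (-1.04 ± 0.24), the kinase Irak2 (-0.90 ± 0.25) and the ligase Peli2 (-1.57 ± 0.37, log2 fold change ± SE, n = 3 in each group). Traf6 stood at 39.1, 18.2 and 12.3 CPM in GFP- Treg and at 20.9, 7.28 and 6.82 CPM in GFP+ Treg, lower in GFP+ Treg within each protocol. The count of lower genes ranged from 0 to 4 with a library left out. Without GFP- replicate 20, GFP+ replicate 19, GFP+ replicate 1 or GFP+ replicate 4, Traf6 lost its call (edgeR adjusted p = 0.147, 0.139, 0.0962 and 0.0952). Peli2 lost it without any 1 of the first 3 of these (between 0.0954 and 0.247), and Irak2 without any 1 library but GFP- replicate 5 (between 0.0675 and 0.201). The list median was -0.22, beside -0.08 for all genes tested.

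Of 13 tested inhibitors 3 rose, where 9.81% of all tested genes did: Il1rl1, the interleukin-33 receptor (3.74), and the inhibitory receptors Cd300a (6.01) and Lair1 (2.22), which myeloid cells carry. Cd300a, with 10, 0 and 1 counts in GFP- Treg, passed the filter only through the GFP+ libraries. The dedicated brakes Irak3 (0.16), Tollip (-0.08) and Sigirr (-0.04) did not pass. Of 8 tested transcription factors 2 rose, beside the same 9.81% of all tested genes. Spi1, which encodes the myeloid factor PU.1, rose by 3.39 ± 0.31 on the log2 scale. Irf5, which acts below TLR7 and TLR9, rose by 1.29 ± 0.21 (SE, n = 3 in each group). The call of Irf5 was lost when GFP- replicate 20 (edgeR adjusted p = 0.0580) or GFP+ replicate 19 (0.0629) was left out. Rela (-0.19) and Irf7 (-0.45) did not pass.

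Inducible targets were mostly low. Of 5 tested genes 4 rose, where 9.81% of all tested genes did: the cytokine Il1b (5.42 ± 0.41), and the chemokines Ccl5 (2.43 ± 0.42), Ccl4 (2.69 ± 0.60) and Cxcl10 (1.17 ± 0.26, log2 fold change ± SE, n = 3 in each group). Il1b had 3, 2 and 3 counts in GFP- Treg and 104, 143 and 180 counts in GFP+ Treg. Like Tlr8, Il1b passed the filter only through the GFP+ libraries. Ccl4, with 17, 1 and 1 counts in GFP- Treg, also needed the GFP+ libraries to pass it. Only 5 of the 15 listed targets were tested. Ccl5 is also made by activated T cells. The call of Ccl4 was lost when GFP- replicate 2 was left out (edgeR adjusted p = 0.0569). That of Cxcl10 was lost when GFP- replicate 20 (0.132) or GFP+ replicate 19 (0.134), 1 (0.0557) or 4 (0.0762) was left out. Tnf (-0.44) did not pass, and Il6, Il12b and Nos2 were too low to test. The part of macrophage markers in these rises was not tested.

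**Figure D4:**
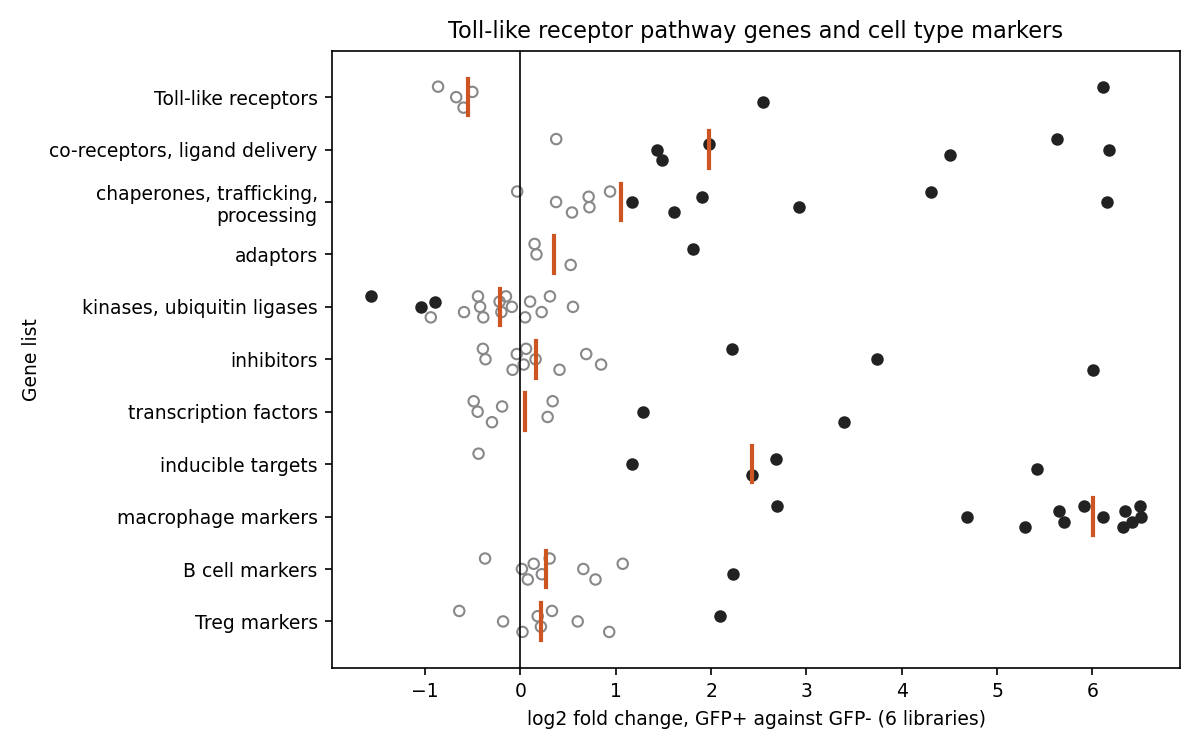
Log2 fold changes of tested genes by list, each point a gene; filled points have an edgeR adjusted p under 0.05 and orange bars are list medians. The macrophage markers lie between 2.69 and 6.51, while kinases and Treg markers scatter around 0.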

How the data were processed

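RNA of sorted Treg was measured in 6 libraries. Raw read counts were deposited by gene, in a table for each protocol, along with RPKM values that are log2, per the file headers. The submitters' processing notes name Subread, featureCounts, edgeR and build mm9, with no version; whether strand was used is not stated. Genes were kept by filterByExpr (10 counts at the median depth, in at least 3 libraries), scaled by TMM and tested with edgeR 4.0.16 in R 4.3.3 with the protocol as covariate and 3 residual degrees of freedom; p-values were adjusted by Benjamini-Hochberg over 10523 genes. Since samples are described only as independent, p-values reflect only how much these samples vary. Standard errors were derived from the F statistic. DESeq2 1.42.0, limma 3.58.1 (voom, and the deposited log2 RPKM) and other settings served as alternatives. The script was tested on simulated data.

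The members and gene lists were chosen with earlier results of these data known. The lists cover co-receptors, chaperones and processing enzymes, adaptors, kinases and ubiquitin ligases, inhibitors, transcription factors, inducible targets, and markers of macrophages, monocytes and neutrophils, dendritic, B, plasma, natural killer, CD8 T, erythroid and regulatory T cells. Named genes are all members, up to 4 genes per list with the smallest p, genes that complete a count, and for 3 members the 3 genes with the most similar profile. Motifs and the Tlr1 and Tlr6 comparison were chosen after the sequences were seen.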

Additional observations from a re-analysis of the deposited data

How the results depend on the processing

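Each tested member was recomputed under 15 alternatives. Of 90 values, 86 kept their direction and side of the threshold, 3 passed in addition (Tlr1 and Tlr6 without GFP- replicate 5, Tlr12 on the deposited log2 RPKM), 1 was lost (Tlr4 without the protocol covariate), and 0 changed direction. The number of members called was 1 without the covariate and between 2 and 4 with a library left out. Over all genes, 1419 calls became 2500 without the filter, 139 without the covariate, 711 in the single-cell protocol libraries alone, and between 721 and 2156 with a library left out, where the filter admits up to 13694 genes and, without a poly(A) library, the other one no longer informs the difference; the cause of the other shifts was not tested. DESeq2 called 1201 higher and 714 lower genes and limma on the deposited values 848 and 514, beside 1032 and 387. The interaction gave 0 calls with both alternatives. Of 29 other genes, 68 of 434 values lost their call and 0 changed direction. No paired analysis was possible because the populations share no replicate numbers and no label pairs their samples. Low counts limit Tlr3, Tlr5 and the GFP- values of Tlr4, Tlr8 and Tlr13.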

Other observations

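Markers of other cell types that the sort could hold were counted in the same fit, which called 9.81% of all tested genes higher and 3.68% lower. Of 5 tested monocyte and neutrophil markers, 3 rose (median log2 fold change 3.47). These were Itgam (3.47) and Lyz2 (3.68) and Lyz1 (3.85), which macrophages also carry. Ly6c2 (-0.06) and Ly6g (1.32) were not called. In the poly(A) pair the neutrophil genes S100a8 and S100a9 had 0 and 7 counts in GFP- replicate 20 and 14 and 11 in GFP+ replicate 19, while Csf3r had 3 and 116, Ccr2 136 and 4445 and Cx3cr1 24 and 113. Of 6 tested dendritic cell markers, Itgax and H2-Ab1 rose and Ccr7 fell, while Siglech, a marker of plasmacytoid dendritic cells, had -0.76 and was not called. Flt3 and Zbtb46 were too low to test.

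Of 5 tested plasma cell markers Sdc1 rose (1.95); with a library left out this count was 3 without GFP- replicate 5 and 0 without any other. Of 4 natural killer cell markers Nkg7 and Gzma rose, the latter kept by the filter only through the GFP+ libraries, and Ncr1 fell. The count of higher genes was 1 without GFP- replicate 20 or any GFP+ library, and that of lower genes 0 without GFP- replicate 20 or 2 or GFP+ replicate 19 or 1. Of 2 CD8 T cell markers Cd8a fell (-0.99), a count that was 0 without GFP- replicate 20 or any GFP+ library. Of 3 erythroid and platelet markers Hba-a1 rose (1.83), and the count was 0 without GFP+ replicate 1 and 2 without GFP- replicate 5. Among 9 tested Treg markers only Ctla4 rose (2.09), and Foxp3 had 0.21 and Cd4 0.02 on the log2 scale. All calls are those of edgeR with Benjamini-Hochberg adjustment, and these counts stand beside 9.81% higher and 3.68% lower over all tested genes.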
